A study of Mus musculus with 12 samples.

Results

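The genes described here are 7 long noncoding RNAs of mouse bone marrow-derived dendritic cells (BMDCs). They were chosen by symbol, through the gene identifiers of the deposited expression tables, and all 7 were found among the 55335 genes listed. They fall into 3 kinds by role. Neat1 and Malat1 are RNAs retained in the nucleus, Gas5, Snhg1 and Snhg12 are host genes of small nucleolar RNAs (snoRNAs), and Mir155hg and Dleu2 are host genes of microRNAs (miRNAs). All 7 passed the filter on low counts that left 14357 genes for testing. The rule used no measured value, but the genes were chosen with earlier results of these data known.

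Bulk RNA-seq was done on 4 groups of 3 libraries, with cells from C57BL/6 mice that carry CreER, a tamoxifen-inducible Cre recombinase, and an intact Ctcf gene. Bone marrow was grown with GM-CSF for 6 days, the medium was renewed every 2 days, and floating cells bearing the dendritic cell protein CD11c were selected with beads. The untreated group is WT. WTL received lipopolysaccharide (LPS), a bacterial cell wall component, at 100 ng/ml for 3 h. WT + JSH23 received the inhibitor JSH-23, which keeps the NF-κB subunit RelA out of the nucleus, at 100 µM for 3 h, and WTL + JSH23 received JSH-23 before LPS. It was not settled here whether the untreated and LPS-only cultures had the inhibitor's solvent, nor whether any of these cultures received 4-hydroxytamoxifen. The libraries are called biological replicates, but which of them came from separate animals is not given, so the p-values measure the spread between these libraries.

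NEAT1 RNA is the scaffold of paraspeckles, nuclear bodies built on its long isoform with proteins such as SFPQ and NONO, while MALAT1 RNA gathers at nuclear speckles next to splicing factors. Noncoding snoRNA host genes carry snoRNAs in their introns, and their spliced RNAs often begin with a pyrimidine tract and are degraded quickly when translated. The host RNA of miR-155 is one of the best known LPS-induced noncoding transcripts of myeloid cells, and the miRNA acts on mRNAs for signalling proteins such as SHIP-1 (Inpp5d) and SOCS1. Dleu2 is the host of miR-15a and miR-16-1, which act on mRNAs of D-type cyclins.

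The mature miRNAs of the 2 miRNA host genes are shown because they are the products these genes are known for, although libraries of this kind did not measure them. The sequences are from RefSeq on GRCm38.p6, 5′ to 3′, with the seed, bases 2 to 8, in capitals. The miRNAs of Dleu2 share 1 seed on the 5p arm, and no other pair of the mature forms shares one.
mmu-miR-155-5p (chr16:84714143-84714165, plus strand): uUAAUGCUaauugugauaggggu
mmu-miR-15a-5p (chr14:61632075-61632096, minus strand): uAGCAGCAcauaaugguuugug
mmu-miR-16-5p (chr14:61631936-61631957, minus strand): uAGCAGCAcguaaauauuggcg

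The start regions of the 3 snoRNA host genes are shown because host genes of this kind are known for a pyrimidine tract at the start of transcription. Each runs from 20 bases before to 40 bases from the annotated start (RefSeq start windows, GRCm38.p6). Capitals mark a C followed by at least 4 bases that are each C or T and beginning within 10 bases of the start, on the gene's strand. Snhg12 and 1 of the 2 starts of Gas5 held such a tract, the start near which 10 annotated Gas5 transcripts begin, and Snhg1 held none by this rule.
Gas5 (chr1:161035146-161035205, plus strand): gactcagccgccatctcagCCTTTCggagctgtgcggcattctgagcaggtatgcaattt
Snhg1 (chr19:8723467-8723526, plus strand): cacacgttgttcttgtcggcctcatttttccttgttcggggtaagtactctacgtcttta
Snhg12 (chr4:132308658-132308717, plus strand): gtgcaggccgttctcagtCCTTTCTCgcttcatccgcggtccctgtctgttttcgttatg
The starts of Mir155hg and Dleu2 met the same rule and that of Malat1 did not. It was met by 30.7% of all 32851 start windows and by 56.2% of the 73 windows of ribosomal protein genes, so a match is common. A κB consensus site, searched on both strands of the windows from 250 bases before to 50 bases after the start, was found in none of those of the 6 genes in that table, Mir155hg included, and in 4.51% of all windows. Neat1 was not in that table.

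Expected counts summed to between 24664724 and 34837847 in a library, and the 7 genes held between 0.175% and 0.289% of them. The dendritic cell markers were present, with Cd74 at a mean of 12594 to 14122 and Itgax, which encodes CD11c, at 243 to 317 TPM (transcript abundance per length, on a common total) in the groups. The macrophage and monocyte markers were present too, with a summed TPM of 3148 to 3272 in WT and 2220 to 2260 in WT + JSH23, and no marker of the list was at 0. The 10 markers of B and T cells summed to between 2.67 and 7.22 TPM. Replicate libraries differed from each other by more than sampling noise (chi-square per degree of freedom 2.30 to 8.58), and WTL + JSH23 replicate 3 stood furthest from its group, at 7.76 and 8.58 against at most 4.35 for every other pair.

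Per transcript length, Neat1 was the most abundant of the 7 in every group, with 582 ± 14.2 TPM in WT, 419 ± 16.5 in WTL, 755 ± 20.4 in WT + JSH23 and 857 ± 11.9 in WTL + JSH23 (SD, n = 3 for each). Malat1 came next in each group, between 246 ± 7.08 TPM in WT and 281 ± 20.9 in WT + JSH23. In WT the order went on with Gas5 at 171 ± 9.17, Mir155hg at 62.9 ± 4.31, Snhg1 at 32.4 ± 3.99, Dleu2 at 20.6 ± 2.05 and Snhg12 at 13.8 ± 1.67 TPM. No neighbours in this order overlapped in WT, WTL or WT + JSH23. LPS moved Mir155hg above Gas5, to 207 ± 12.7 against 146 ± 2.09 TPM in WTL. In WTL + JSH23 the libraries of Mir155hg (190.3 to 213 TPM) and Gas5 (175 to 190.3 TPM) overlapped, and so did those of Snhg1 and Dleu2. By their mean TPM over the 12 libraries the 7 genes ranged from rank 237 (Neat1) to rank 6272 (Snhg12) of all genes.

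**Figure D1:**
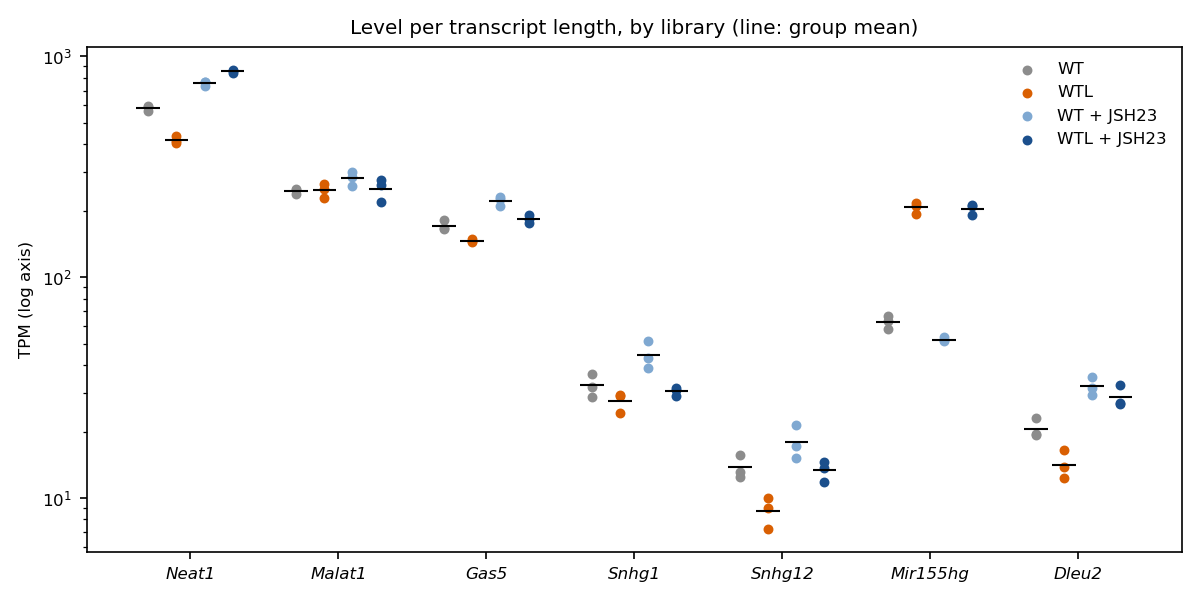
Level of each gene per transcript length (TPM, log axis) in each of the 3 libraries of the 4 groups, with the group mean as a line. Neat1 lies highest in every group, between 407 and 867 TPM, and Snhg12 lowest, between 7.21 and 21.5 TPM, while Mir155hg lies between 190.3 and 217 TPM in the LPS-treated groups and between 51.3 and 66.9 TPM in the others.

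Within 1 gene, libraries were compared by CPM, the count divided by a library size that was first corrected by the TMM method of edgeR. Differences were tested by edgeR with adjustment over all 14357 genes, and a gene was called at an adjusted p under 0.05. Of the 7 genes, LPS changed 4 without JSH-23 and 4 with it, and JSH-23 changed 6 in resting cells and 5 under LPS. The call was common among all genes as well, made for 65.7%, 54.5%, 41% and 48.7% of genes in the same order, so these counts by themselves do not set the 7 genes apart. The libraries of the groups compared did not overlap for 4, 4, 6 and 4 of the 7, and for 69.9%, 59.1%, 51.5% and 54.8% of all genes. Changes of more than 2-fold were made by Mir155hg alone, in both LPS comparisons, while 16.4%, 10.3%, 5.37% and 7% of all genes passed that threshold, and 1.34% for the interaction of LPS and JSH-23. LPS changes depended on the scaling: the median over all genes was -0.38 without JSH-23 and -0.26 with it when library totals alone were used, and -0.26 and -0.16 on log2(TPM + 1), a scale tested by limma, against -0.047 and -0.018 with TMM. For JSH-23 under LPS the median was 0.15 with library totals alone and 0.020 with TMM. In the rest of the text, an adjusted p is that of edgeR unless another tool is named.

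**Figure D2:**
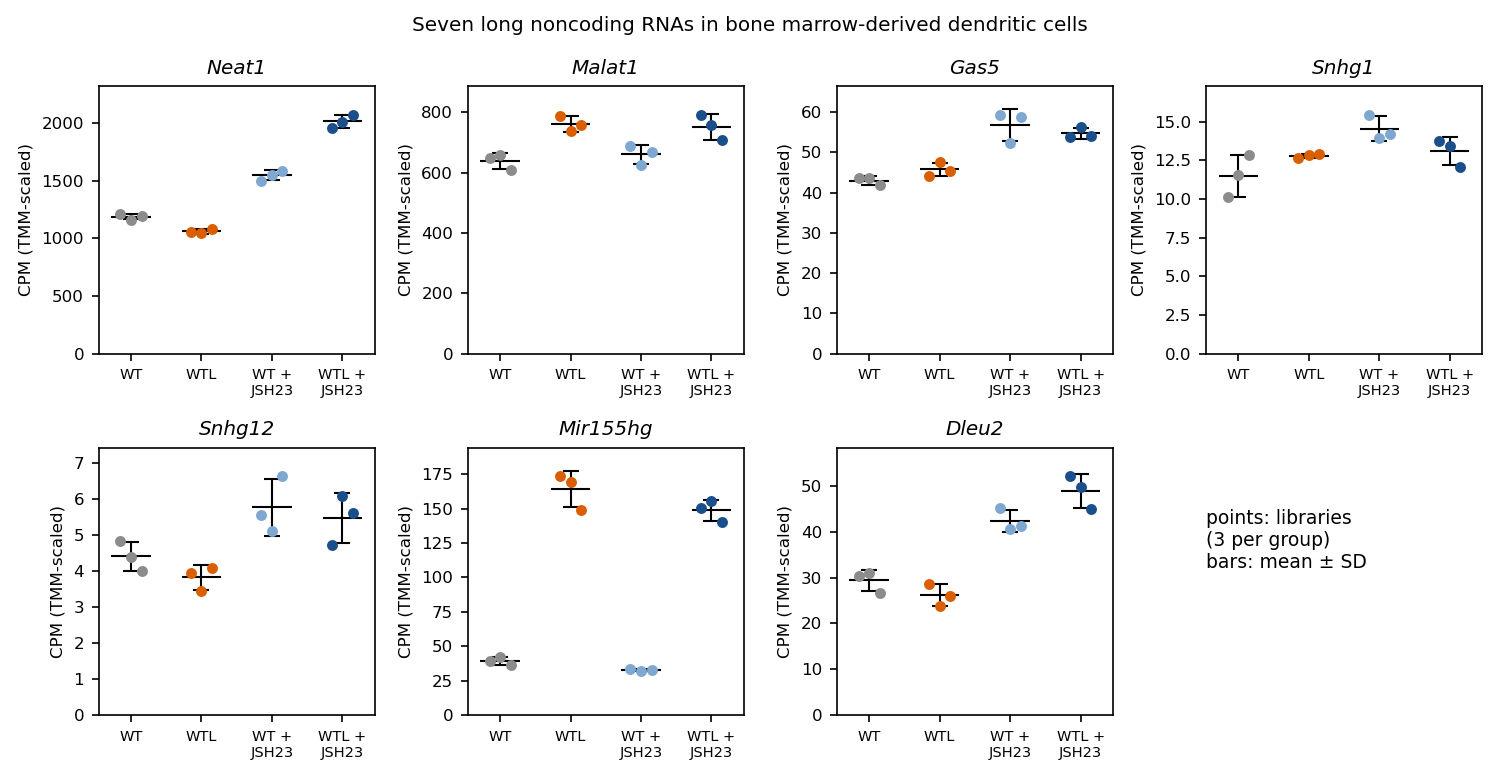
TMM-scaled counts (CPM) of the 7 genes in each library (points) with the mean and SD of the 3 libraries (black), each axis starting at 0. Mir155hg rises with LPS with or without JSH-23, Neat1 and Dleu2 are highest in WTL + JSH23 (means of 2015 and 49.0), and Malat1 differs between groups by less than the others.

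Neat1 (ENSMUSG00000092274, chr19:5824708-5845478, minus strand, GRCm38) had the largest difference of the 7 between the LPS changes with and without JSH-23. Its libraries held 1207, 1162 and 1191 CPM in WT and 1056, 1042 and 1082 CPM in WTL. They held 1498, 1553 and 1585 CPM in WT + JSH23 and 1959, 2013 and 2073 CPM in WTL + JSH23. The 4 groups did not overlap, WTL being lowest and WTL + JSH23 highest. Neat1 fell by 0.16 on the log2 scale with LPS alone (SE 0.035, adjusted p = 0.000362) and rose with LPS in the presence of JSH-23 (log2 fold change 0.38, SE 0.035, adjusted p = 6.7e-09). JSH-23 raised Neat1 by 0.38 in resting cells (SE 0.035, adjusted p = 1.22e-08) and by 0.93, which is 1.90-fold, under LPS (SE 0.035, adjusted p = 8.82e-15). The LPS changes differed by 0.55 on the log2 scale (interaction, SE 0.050, adjusted p = 2.44e-07), a term called for 18% of genes and for 2 of the 7. Each of these 5 calls kept its direction under all scalings and without any 1 library. The size of the LPS changes moved with the scaling, to -0.49 without JSH-23 and 0.14 with it when library totals alone were used, and to -0.47 and 0.18 on log2(TPM + 1).

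Annotated transcripts of Neat1 are 20771, 3004, 1030 and 711 bases long, and the longest contains the sequence of the main short form near the start of the gene. The deposited mean length, which weights transcripts by their estimated abundance, was between 3478 and 3559 bases, close to the short form. A mix of these transcripts with such a mean holds at most 14.2% and at least 2.67% of the longest. These bounds are for the RNA in the libraries, and whether those were made by rRNA depletion or a poly(A) kit was not settled. How far either favours some RNAs over others, the forms of Neat1 and Malat1 included, was not tested. Lengths of Neat1 averaged 3545 ± 8.60 bases in WT and 3500 ± 19.6 in WTL (SD, n = 3). The fall did not pass the test (limma, adjusted p = 0.379), and a changed length was found for 1.17% of the 11541 genes tested with LPS alone. None of the 7 changed in length with LPS and JSH-23, with JSH-23 in either setting or in the interaction, where 0.407%, 0.078%, 0.026% and 0.0173% of genes did (under LPS before resting cells for JSH-23).

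Malat1 (ENSMUSG00000092341, chr19:5795690-5802672, minus strand), which lies 22035 bases from Neat1 on the same strand, did not follow it. There were 648, 658 and 608 CPM in WT and 789, 737 and 756 CPM in WTL. With JSH-23 there were 688, 626 and 668 CPM without LPS and 792, 758 and 707 CPM with LPS. LPS-treated libraries lay above untreated ones in either setting, and the groups with and without JSH-23 overlapped. Malat1 rose with LPS by 0.25 (SE 0.046, adjusted p = 5.32e-05) without JSH-23 and by 0.19 (SE 0.046, adjusted p = 0.00158) with it. The JSH-23 difference was -0.016 under LPS (2 SE below and above it, -0.11 to 0.076) and 0.051 in resting cells (-0.041 to 0.14), and neither passed the test. The LPS changes rest on the scaling: with library totals alone the log2 fold changes were -0.075 and -0.050. On log2(TPM + 1), which also depends on the deposited length, they were 0.0060 and -0.16. That length of Malat1 ran from 3804 to 4737 bases between libraries. RSEM also divided reads between Malat1 and Gm37376, an annotated gene on the opposite strand inside it, which took between 0.0458% and 2.41% of their summed counts, and whether the counting used strand is not given.

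Frmd8, a protein-coding gene 4224 bases from Neat1, fell by 0.42 with LPS alone and by 0.24 with LPS and JSH-23, and rose by 0.13 with JSH-23 under LPS (adjusted p = 0.0163).

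Among 6 tested RNAs of a list of nuclear-retained and related lncRNAs, JSH-23 under LPS raised 5 and lowered none, Malat1 being the exception, against 24.5% of all genes raised. In resting cells JSH-23 raised 2 of the 6 and lowered none, with a median of 0.075, against 18.8% of all genes raised. The 6 include Neat1 and Malat1, and of the other 4 JSH-23 raised 4 under LPS and 1 in resting cells. Kcnq1ot1, an imprinted antisense RNA that stays at chromatin, had 13.6 CPM in WT, 5.44 in WTL, 13.9 in WT + JSH23 and 9.96 in WTL + JSH23. It fell by 1.32 with LPS alone and by 0.48 with LPS and JSH-23, and the difference of 0.84 passed the test (interaction, adjusted p = 0.00013). Firre, a nuclear RNA of the X chromosome, fell by 0.35 with LPS alone, with an interaction of 0.28 (adjusted p = 0.0109). The list also holds Norad, a mostly cytoplasmic RNA, which rose in all 4 comparisons by 0.19 to 0.28 in the edgeR fit. The counts of this list raised by JSH-23 under LPS were 4 to 6 of 6 under the other scalings and tools, and 5 without WTL + JSH23 replicate 3.

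Genes for paraspeckle proteins went the other way from Neat1 with JSH-23. Of 21 tested, 13 fell and 1 rose with JSH-23 under LPS, and 11 fell and none rose in resting cells, with medians of -0.20 and -0.14 against 0.020 and -0.0078 for all genes. Among all genes 24.2% and 22.1% fell. Nono fell by 0.42 and 0.29, Sfpq by 0.34 and 0.20 and Hnrnpk by 0.34 and 0.15, and these 3 core paraspeckle proteins were picked from the list after their values were seen. With library totals alone the counts under LPS were 5 fallen and 4 raised, so the direction of this list under LPS rests on the scaling, while in resting cells 8 fell and none rose. LPS raised 16 of the 21 with or without JSH-23 (31% of all genes without it and 27.4% with it), but with library totals alone it raised 6 and lowered 6 without JSH-23 and raised 6 and lowered 7 with it. Rbm7, an RNA-binding protein of the nuclear exosome targeting complex, rose most, from 72.9 CPM in WT to 176 CPM in WTL.

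Gas5 (ENSMUSG00000053332, chr1:161034422-161038539, plus strand) hosts 10 annotated snoRNA genes. Its libraries held 43.6, 43.6 and 41.8 CPM in WT, 44.2, 47.6 and 45.5 in WTL, 59.4, 52.3 and 58.7 in WT + JSH23, and 53.8, 56.3 and 54.0 in WTL + JSH23. Every JSH-23 library lay above every library without it. JSH-23 raised Gas5 by 0.40 in resting cells, which is 1.32-fold (SE 0.050, adjusted p = 1.08e-06), and by 0.26 under LPS (SE 0.052, adjusted p = 0.000305). The LPS changes of 0.091 and -0.056 did not pass the test (adjusted p = 0.13 and 0.365), but both turn on the scaling. Without JSH-23 the change was called as a rise with DESeq2 size factors (0.13, adjusted p = 0.0392) and as a fall with library totals alone (-0.24, adjusted p = 0.000295) and on log2(TPM + 1) (-0.22, adjusted p = 0.00101). With JSH-23 it was called as a fall with library totals alone (-0.29, adjusted p = 2.95e-05), on log2(TPM + 1) (-0.27, adjusted p = 0.000343) and with upper quartile factors (-0.14, adjusted p = 0.024). The LPS change of Gas5 was not shown to differ with JSH-23 (interaction -0.15, adjusted p = 0.175), except without WT + JSH23 replicate 2 (-0.20, adjusted p = 0.0424). Zbtb37, which overlaps the start of Gas5 on the opposite strand, fell by 0.24 with JSH-23 in resting cells, opposite to Gas5.

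Snhg12 (ENSMUSG00000086290, chr4:132308623-132311024, plus strand), the host of 5 annotated snoRNA genes, was the least abundant of the 7, with 89 to 195 expected counts in a library. There were 4.83, 4.38 and 4.0 CPM in WT and 3.95, 3.43 and 4.10 in WTL, and with JSH-23 there were 5.56, 5.10 and 6.64 without LPS and 4.71, 6.09 and 5.62 with LPS. JSH-23 raised Snhg12 by 0.52 under LPS (SE 0.13, adjusted p = 0.00304) and by 0.39 in resting cells (SE 0.12, adjusted p = 0.0157), and in neither did the groups overlap. The resting call was lost without WT replicate 6 (adjusted p = 0.0713), without WT + JSH23 replicate 3 (adjusted p = 0.12) and on log2(TPM + 1) (limma, adjusted p = 0.0717). LPS differences of -0.21 and -0.081 did not pass the test (adjusted p = 0.169 and 0.607). Both were called as falls with library totals alone (-0.54 and -0.32, adjusted p = 0.00102 and 0.0278) and on log2(TPM + 1) (-0.60 and -0.39, adjusted p = 0.00204 and 0.0312).

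Snhg1 (ENSMUSG00000108414, chr19:8723475-8726443, plus strand), the host of 8 annotated snoRNA genes, answered to JSH-23 in resting cells. Libraries held 10.1, 11.5 and 12.8 CPM in WT, 12.6, 12.8 and 12.9 in WTL, 15.5, 13.9 and 14.2 in WT + JSH23, and 13.7, 13.4 and 12.1 in WTL + JSH23. WT + JSH23 lay above the other 3 groups, which overlapped each other. The JSH-23 change was 0.34 in resting cells (SE 0.079, adjusted p = 0.00133) and 0.037 under LPS (2 SE below and above it, -0.13 to 0.20), where it did not pass the test. The difference between these changes was -0.31 (interaction, SE 0.12, adjusted p = 0.0698), so the JSH-23 change was not shown to differ between resting and LPS-treated cells, although the difference passed without WT replicate 6 (-0.39, adjusted p = 0.0258) and with the replicate number as a block (-0.31, adjusted p = 0.0446). The LPS change without JSH-23, 0.16 in the fit to all libraries, passed without WT replicate 6 (0.24, adjusted p = 0.021) and with DESeq2 size factors (0.19, adjusted p = 0.0475), and was -0.17 with library totals alone. With JSH-23 the LPS change was -0.15 (adjusted p = 0.121), although the groups did not overlap. It was called with upper quartile factors (-0.23, adjusted p = 0.0196), library totals alone (-0.39, adjusted p = 0.000308) and on log2(TPM + 1) (-0.52, adjusted p = 0.0015). Slc3a2, the heavy chain of an amino acid transporter, begins 106 bases away on the opposite strand and rose with JSH-23 by 0.72 in resting cells and 0.53 under LPS, and with LPS by 0.62 and 0.42.

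Within the bounds of these 3 hosts lie 23 annotated snoRNA genes, between 60 and 137 bases long, of which 21 were at 0 in every library. Snord80 in Gas5 and Snora16a in Snhg12 each appear as overlapping entries that were counted separately. A snoRNA is shorter than the fragments counted here, so its level was not measured. The 16 tested host genes of the wider list, the 3 included, held 8 that rose and 1 that fell with JSH-23 in resting cells, and 6 that rose and 1 that fell under LPS, against 18.8% and 24.5% of all genes that rose. The other 13 held 5 that rose in resting cells, namely Snhg17 (0.65), Epb41l4aos (0.63), Snhg6 (0.53), Snhg5 (0.33) and Snhg15 (0.19), and 4 under LPS, namely Epb41l4aos (0.62), Snhg8, Snhg17 (0.40 each) and Snhg20 (0.36). They were named after their values were seen. Medians of the 16 were 0.23 and 0.24, against -0.0078 and 0.020 for all genes. Zfas1 fell by 0.33 with JSH-23 under LPS, and Snhg14, an imprinted host gene, fell by 1.11 in resting cells at 1.22 CPM or less. Other scalings and tools gave 5 to 8 raised in resting cells and 5 to 9 under LPS, and without WTL + JSH23 replicate 3 the count under LPS was 4.

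Among the 8 tested genes for proteins of snoRNA particles, JSH-23 raised 2 in resting cells (Nop56 and Nhp2) and 1 under LPS (Nop56, by 0.26), and lowered Snu13 under LPS by 0.22, counts near the shares of all genes (18.8% and 24.5% raised, 24.2% lowered under LPS). Among 10 genes for nonsense-mediated decay factors, which degrade the spliced RNA of hosts such as Gas5, JSH-23 raised none and lowered 2 in resting cells, and raised 4 and lowered 3 under LPS, where with library totals alone it raised 6 and lowered 3. Of all genes, 18.8% rose and 22.1% fell in resting cells and 24.5% rose and 24.2% fell under LPS.

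**Figure D3:**
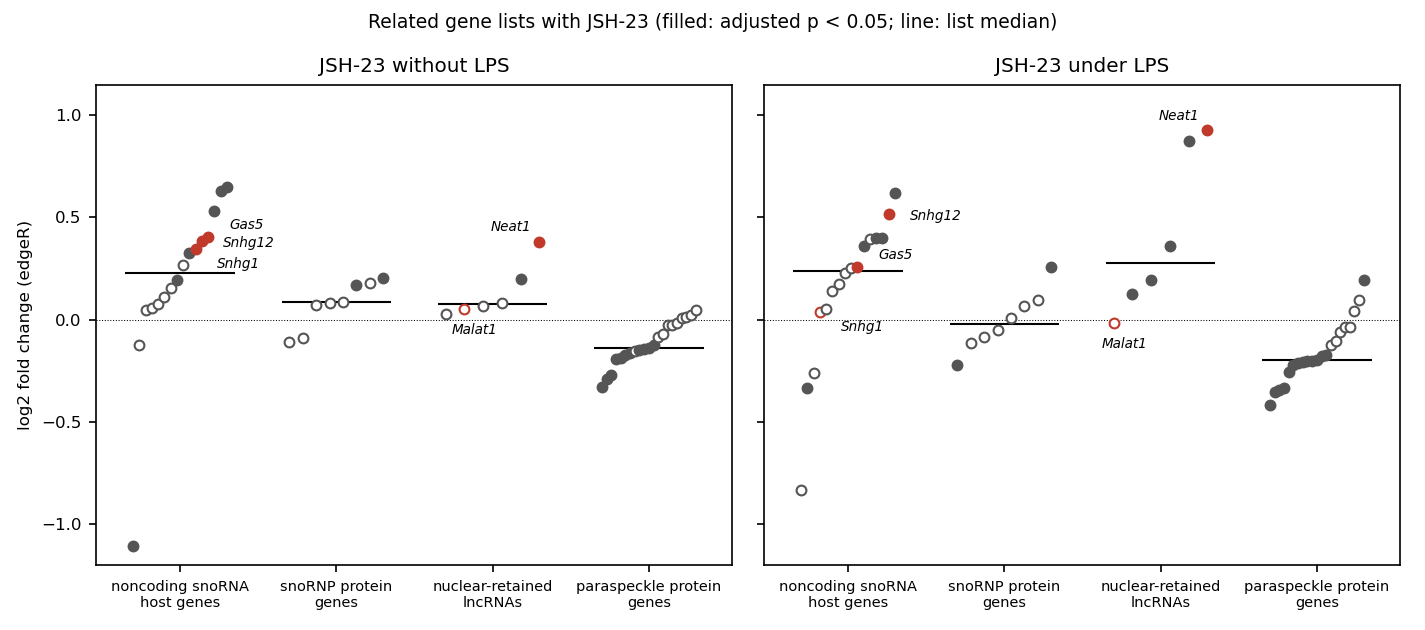
Log2 fold change with JSH-23 in resting cells (left) and under LPS (right) of every tested gene of 4 lists, each point a gene, red for the genes described here, filled where the adjusted p was under 0.05, with a line at the list median. Noncoding snoRNA host genes lie mostly above 0 (medians 0.23 and 0.24) and paraspeckle protein genes mostly below (medians -0.14 and -0.20).

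Mir155hg (ENSMUSG00000097418, chr16:84703167-84715245, plus strand) changed most of the 7. There were 39.4, 42.4 and 36.4 CPM in WT and 174, 169.7 and 149 CPM in WTL, and 33.7, 32.2 and 32.7 CPM in WT + JSH23 and 150.4, 155 and 140.4 CPM in WTL + JSH23. The LPS-treated groups were apart from the untreated ones by a wide margin, and overlapped each other. LPS raised Mir155hg 4.16-fold without JSH-23 (log2 fold change 2.06, SE 0.060, adjusted p = 1.47e-17) and 4.53-fold with it (2.18, SE 0.061, adjusted p = 1.79e-17). The difference of 0.12 between these changes did not pass the test (interaction, 2 SE below and above it, -0.049 to 0.29, adjusted p = 0.367). JSH-23 lowered Mir155hg by 0.27 in resting cells (SE 0.065, adjusted p = 0.00221). Under LPS the difference was -0.14 (SE 0.055, adjusted p = 0.0358), a call lost with library totals alone (-0.014), on log2(TPM + 1) (-0.017), with upper quartile factors and when only the groups compared were fitted. It was also lost without WTL replicate 4 (-0.10, adjusted p = 0.188), WTL replicate 5, WTL + JSH23 replicate 1 or WTL + JSH23 replicate 3.

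All counts of Mir155hg were assigned to 1 of its 2 annotated transcripts, of 1264 bases, which starts at position 84713023 and runs through the miR-155 hairpin, and its deposited length was 1264 in all 12 libraries. The hairpin gene itself, 65 bases long, was at 0 in every library. Mrpl39, the nearest protein-coding gene tested, rose by 0.33 with LPS alone and fell by 0.34 with JSH-23 under LPS. The genes most like Mir155hg over the 12 libraries were Ell2 (r = 0.998), a transcription elongation factor, Rbm7 and Malt1 (r = 0.997 each), the latter a protease of NF-κB signalling. These correlations are a description of log2 CPM over libraries that fall into LPS-treated and untreated ones.

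Of 10 tested lncRNAs of a list linked to the innate immune response, Mir155hg included, LPS raised 6 and lowered 1 without JSH-23. With JSH-23 it raised 5 and lowered 1, against 31% (without JSH-23) and 27.4% (with it) of all genes raised. Of the other 9, LPS raised 5 without JSH-23 and 4 with it, and lowered 1 in either setting. Ptgs2os2, transcribed beside the cyclooxygenase gene Ptgs2, rose by 2.86 and 2.6, and JSH-23 did not change it beyond the threshold under LPS (0.26, adjusted p = 0.0858). Ptgs2os, at no more than 3.37 CPM, rose by 3.48 without JSH-23 and by 1.59 with it, an interaction of -1.89 (adjusted p = 0.00318). Mirt2 was higher with JSH-23, at 0.21 CPM in WT and 1.17 CPM in WT + JSH23. AW112010, an abundant interferon-responsive transcript, fell by 0.57 with JSH-23 under LPS and by 0.33 in resting cells.

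Genes on a list of known miR-155 targets did not share a direction with LPS. LPS raised 6 and lowered 4 of the 11 tested without JSH-23, and raised 5 and lowered 5 with it, where LPS raised 31% and 27.4% of all genes and changed 65.7% and 54.5% in either direction. Inpp5d fell by 1.95 and 1.41, and Socs1 rose by 1.61 and 1.75. Arg2, an arginase, rose by 3.00 and 2.35, from 1.60 CPM in WT to 12.6 in WTL and from 3.91 CPM in WT + JSH23 to 20.1 in WTL + JSH23. JSH-23 lowered 8 and raised 3 of the 11 in resting cells, and lowered 6 and raised 3 under LPS. Of all genes, 22.1% and 24.2% fell. Maf fell most, by 1.93 and 2.30. Whether any of these changes goes with the mature miRNA was not tested.

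Dleu2 (ENSMUSG00000097589, chr14:61602839-61682373, minus strand) resembled Neat1 in its pattern. There were 30.5, 31.1 and 26.7 CPM in WT and 28.6, 23.8 and 26.1 in WTL, and 45.2, 40.7 and 41.4 in WT + JSH23 and 52.2, 49.7 and 45.0 in WTL + JSH23. Every library with JSH-23 lay above every library without it, while groups with and without LPS overlapped. JSH-23 raised Dleu2 by 0.53 in resting cells (SE 0.070, adjusted p = 2.33e-06) and by 0.91, or 1.88-fold, under LPS (SE 0.073, adjusted p = 9.79e-10). Neither call was lost under any scaling or without any 1 library. The LPS changes were -0.17 without JSH-23 (SE 0.074, adjusted p = 0.0472) and 0.21 with it (SE 0.068, adjusted p = 0.0132). The first call was lost under DESeq2 (adjusted p = 0.124) and without any one of WT replicates 4 and 5, WTL replicates 5 and 6, WT + JSH23 replicates 2 and 3 and WTL + JSH23 replicate 2, with an adjusted p of up to 0.283 (-0.10 without WTL replicate 5). It was lost with DESeq2 size factors in edgeR as well (-0.14, adjusted p = 0.108). The fall was larger with upper quartile factors (-0.25, adjusted p = 0.00538), library totals alone (-0.50, adjusted p = 4.03e-06) and on log2(TPM + 1) (-0.51, adjusted p = 0.00147). The second was lost without WT + JSH23 replicate 2 (adjusted p = 0.0612) or WTL + JSH23 replicate 1 (adjusted p = 0.0782) and with upper quartile factors (0.12, adjusted p = 0.129), and had a value of -0.030 with library totals alone and -0.15 on log2(TPM + 1). The difference between them was 0.38 (interaction, SE 0.10, adjusted p = 0.0114), with adjusted p of 0.0538 without WTL replicate 5 and 0.163 on log2(TPM + 1) (limma).

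Annotated Dleu2 transcripts of 4098, 3544 and 3530 bases are the only ones longer than 1557 bases. The deposited mean length was between 2112 and 3043 bases, so part of the estimated abundance lay in these long forms. None of them contains the whole gene of miR-15a or of miR-16-1. How much of the Dleu2 count came from transcripts that span these miRNAs was not tested. Dleu2 spans a region with other genes. Its counts can be mixed with those of genes on the same strand, and with those on the opposite strand where the counting ignored strand. Trim13, a ubiquitin ligase gene that overlaps its end on the opposite strand, rose by 1.21 and 1.24 with LPS and had JSH-23 differences of 0.0092 and -0.015 that did not pass the test, unlike Dleu2. Spryd7, a protein-coding gene 45953 bases beyond the end of Dleu2, rose by 1.89 and 1.48 with LPS. Kcnrg, a potassium channel regulator inside Dleu2 on the opposite strand with 10 to 50 counts in a library, rose by 1.43 with JSH-23 under LPS. Inside Dleu2 on the same strand, Gm27010 (9 to 39 counts) rose by 1.26 with JSH-23 under LPS, with an interaction of 1.42 (adjusted p = 0.0132). Its resting change of -0.15 did not pass the test. Gm37472 (16 to 55 counts) rose with JSH-23 by 0.95 under LPS and 0.84 in resting cells. Gm37420 (3 to 24 counts) passed in neither. Over the 12 libraries, log2 CPM of Dleu2 and Neat1 had r = 0.942, the highest of the 21 pairs among the 7 genes, and Malat1 and Mir155hg had r = 0.889, in libraries that share 4 treatments.

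The miR-15 and miR-16 target list, 8 genes tested, held 3 that fell and none that rose with JSH-23 under LPS, and 3 that fell and 1 that rose in resting cells, against 24.2% and 22.1% of all genes that fell. Ccnd2, which encodes cyclin D2, had 383 CPM in WT, 1079 in WTL, 185 in WT + JSH23 and 373 in WTL + JSH23, and fell by 1.53 with JSH-23 under LPS and by 1.05 in resting cells. Ccnd1, which encodes cyclin D1, fell by 1.22 and 1.53. Both rose with LPS, Ccnd1 by 1.25 in the presence of JSH-23. Neither mature miR-15a nor miR-16 was measured, and what the host RNA has to do with these changes was not tested. Of 10 genes for miRNA processing, JSH-23 raised 4 under LPS and 2 in resting cells and lowered none, with medians of 0.12 and 0.017, against 24.5% and 18.8% of all genes raised. The count under LPS ran from 2 (DESeq2) to 8 (library totals alone).

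**Figure D4:**
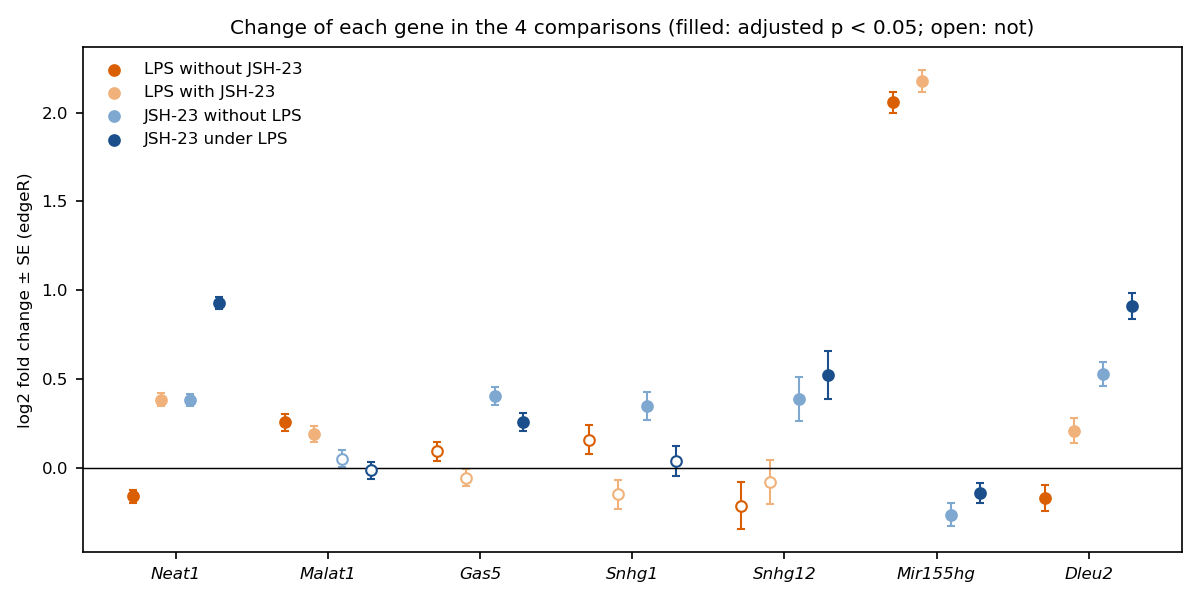
Log2 fold change with its SE (edgeR, all 12 libraries) of each gene in the 4 comparisons, filled where the adjusted p was under 0.05. Mir155hg changes by more than 2 with LPS, whereas Neat1 and Dleu2 rise most with JSH-23 under LPS (0.93 and 0.91), and their LPS changes have opposite signs without and with JSH-23, except that the change of Dleu2 with JSH-23 is also negative with library totals alone (-0.030) and on log2(TPM + 1) (-0.15).

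The JSH-23 changes stood beside a shift in cell type markers. Of 10 macrophage and monocyte markers, 9 fell with JSH-23 under LPS and 8 fell in resting cells, where 1 rose, against 24.2% and 22.1% of all genes that fell. Ly6c2 fell by 1.41 and 1.43 and Fcgr1 by 1.40 and 1.31. Summed over the list, CPM of the unscaled library total ran from 3146 to 3291 in WT, 2895 to 3004 in WTL, 2448 to 2479 in WT + JSH23 and 2489 to 2537 in WTL + JSH23. Of 7 tested neutrophil markers, 7 fell with JSH-23 under LPS and 2 in resting cells, and with library totals alone 4 fell under LPS. Of 10 dendritic cell markers, 6 fell and 2 rose with JSH-23 under LPS, and 3 fell and 4 rose in resting cells. With library totals alone, 1 fell and 4 rose under LPS and none fell and 4 rose in resting cells. Their sum, to which Cd74 gave most, was 15459 to 16959 on the unscaled CPM across all groups. The part of these markers in the changes of Neat1, Dleu2, Gas5 and Snhg12 was not tested, and in bulk RNA fewer cells of a type and less RNA per cell cannot be told apart.

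The genes most like each of the others, by Pearson's r of log2 CPM over the 12 libraries among 7698 protein-coding genes, were Ube4b for Neat1 (r = 0.988), Zfp871 for Malat1 (0.967), Tusc1 for Gas5 (0.965), Ptpn1 for Snhg1 (0.837), Krtcap2 for Snhg12 (0.942) and Tent4b for Dleu2 (0.975). Ube4b, a ubiquitin chain elongation factor, had 67.9 CPM in WT, 64.1 in WTL, 77.2 in WT + JSH23 and 89.3 in WTL + JSH23, the same order of groups as Neat1. Atf1, a CREB family transcription factor, was second for Gas5 (0.955), with 36.3, 38.4, 47.9 and 49.0 CPM. Snhg1 was the one whose closest gene was least alike.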

How the data were processed

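The authors aligned reads to mm10 with STAR 2.6.0c and RSEM estimated abundances per gene, with HOMER also named in the submitters' processing notes; the GENCODE release is not given in the sources used here. The labels name rRNA depletion and the study's methods a poly(A) kit, and which applied was not settled. A list of 11 RNAs without a poly(A) tail held 0.000772% to 0.00111% of the counts in a library. Clustered histone genes held 0.00641% to 0.0130%. The deposited expected counts are fragments per gene, divided by RSEM between genes that share them, with no scaling between libraries. The deposited TPM values are scaled per transcript length to a common total by the authors, and the deposited FPKM values were not used. The deposited length of a gene is the mean of its transcripts weighted by estimated abundance.

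Genes were named from GENCODE M21 (GRCm38), matching 55154 of 55335 identifiers without the version, and 170 of 173 listed symbols. Expected counts were rounded. In edgeR 4.0.16 (R 4.3.3), filterByExpr, TMM and a two-sided quasi-likelihood F-test were run on 12 libraries with 1 mean per group, with Benjamini-Hochberg adjustment over the genes tested, and CPM is the count over the TMM-scaled library size. The SE is the change divided by the square root of F. Lengths were tested by limma 3.58.1 on log2 length. DESeq2 1.42.0, limma on log2(TPM + 1), other scalings and filters, and leaving out each library were alternatives. The edgeR and length tests were also run on simulated data with changes set in WTL alone, which is simpler than these data. The outcome is not reported here. Total counts of 24664724 to 34837847 and 3 libraries per group set the precision.

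The genes and gene lists were chosen with earlier results of these data known. Genes named were the 7 genes, their neighbours and overlapping genes, the 3 genes with the highest r for each (mean of at least 10 CPM), and in each list up to 2 genes each way of more than 2-fold change at 1 CPM or more. Genes named outside this rule are described as chosen after their values were seen, or stand as an example of a list with its count. Some genes that meet the rule are not reported here.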

Additional observations from a re-analysis of the deposited data

Results flagged for a closer look

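For Neat1 the LPS change with JSH-23 exceeded that without it by 0.55 on the log2 scale (edgeR interaction, adjusted p = 2.44e-07), every WTL library lying below every WT library and every WTL + JSH23 library above every WT + JSH23 library. For Dleu2 the same difference was 0.38 (adjusted p = 0.0114). That call was lost without WTL replicate 5 (edgeR, adjusted p = 0.0538) and on log2(TPM + 1) (limma, adjusted p = 0.163). Both are differences between LPS responses with and without JSH-23, tested as an interaction term. Groups of 3 libraries were not tested for outlying libraries.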

How the results depend on the processing

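Over the alternatives tried for the log2 fold changes of the 7 genes, 655 kept direction and side of the threshold, 27 lost the call, 16 gained it and 16 changed sign, and the cause was not tested. With library totals alone the changes of sign were those of Malat1 (-0.075 with LPS alone, -0.050 with LPS and JSH-23, 0.11 with JSH-23 under LPS, 0.025 for the interaction), Gas5 and Snhg1 with LPS alone (-0.24 and -0.17) and Dleu2 with LPS and JSH-23 (-0.030). On log2(TPM + 1) they were Gas5 and Snhg1 with LPS alone (-0.22 and -0.23), Malat1 and Dleu2 with LPS and JSH-23 (-0.16 and -0.15) and Malat1 with JSH-23 under LPS (0.019). Leaving out a library gave a range of -0.17 to 0.029 for Snhg12 with LPS and JSH-23, positive without WT + JSH23 replicate 3 (0.029) or WTL + JSH23 replicate 1 (0.025), and of -0.050 to 0.028 for Malat1 with JSH-23 under LPS, with 0.011 without WTL replicate 4 and 0.028 without WTL + JSH23 replicate 3.

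In the order LPS alone, LPS with JSH-23, JSH-23 under LPS, JSH-23 in resting cells and interaction, requiring more than 2-fold as well left 2361, 1484, 1005, 771 and 192 genes in place of 9437, 7828, 6994, 5881 and 2582, and 1, 1, 0, 0 and 0 of the 7 genes. Leaving out 1 library gave 3 to 5, 3 to 4, 4 to 5, 5 to 6 and 1 to 3 of the 7, and 1 for the interaction on log2(TPM + 1). The counts of genes with a changed length, 135, 47, 9, 3 and 2, moved to 59 to 145, 33 to 50, 1 to 15, 1 to 7 and 1 to 8, and with effective length the interaction gave 1.

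Between WT and WTL and between the JSH-23 groups, libraries of the same replicate number had correlations of deviations of 0.0142 to 0.0614. Those of different numbers had -0.056 to 0.035, so whether the numbers pair libraries weakly was not settled. The groups with and without JSH-23 share no number. With the replicate block, changed lengths were 4 with LPS alone, 0 with LPS and JSH-23 and 0 for the interaction (limma, with an unadjusted p under 0.05 in 1221, 1014 and 689 genes), and the Snhg1 interaction passed (-0.31, adjusted p = 0.0446), the only call among the 7 genes that the block changed. The counts of the gene lists under other scalings and tools were chosen after seeing the data. Depth limits Snhg12 most, with 89 to 195 counts in a library.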
